A study of Mus with 96 samples.

Results

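The 10 genes described here encode acute phase proteins that the liver secretes into blood: the serum amyloid A genes Saa1, Saa2, Saa3 and Saa4, the orosomucoid genes Orm1 and Orm2, haptoglobin (Hp), hemopexin (Hpx), lipocalin 2 (Lcn2) and the fibrinogen beta chain (Fgb). They were taken from the count table by gene symbol alone. All 10 were among its 55487 genes, and all 10 were among the 15548 genes that held at least 100 counts in sum over the 96 libraries and were tested.

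Acute phase proteins are made mainly by hepatocytes, and their transcription changes within hours of infection, tissue injury or inflammation elsewhere in the body. IL6 acts on their promoters through STAT3, while IL1 and TNF act through NF-kappaB and C/EBP factors. Some of them are classical markers of systemic inflammation, some scavenge hemoglobin, heme or iron carriers, and some serve clotting or lipid transport, so they need not move as a block.

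Livers of 96 mice of both sexes on a C57BL/6J background, 8 to 10 weeks old before acclimation and feeding, were profiled by BRB-seq, a bulk method that reads only the 3′ end of each mRNA. Hep-Bmal1KO mice (AlbCre/+ Bmal1flx/flx) carried floxed alleles of the core clock gene Bmal1 and a Cre driven by the albumin promoter, which is active in hepatocytes. Hep-Bmal1WT mice (Alb+/+ Bmal1flx/flx) were littermates that carried the same floxed alleles without Cre. Both genotypes received normal chow (NC, 14% fat) or a high-fat diet that lacked choline (cdHFD, 60% fat, 2% cholesterol and 0.17% methionine) for 2 weeks, a diet used to model steatohepatitis. Livers were collected at Zeitgeber time (ZT, hours after lights on) 2, 6, 10, 14, 18 and 22, with 4 mice for each combination of genotype, diet and ZT, so that each of the 4 groups of genotype and diet held 24 mice. Each combination held 2 males and 2 females, except Hep-Bmal1WT mice on cdHFD at ZT14, with 3 males and 1 female.

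Library totals ran from 1861740 to 9718620 counts. Values below are counts scaled to a common library size (CPM) after edgeR's TMM scaling, and differences are log2 fold changes from the quasi-likelihood test of edgeR. A gene was called where its p, adjusted over all genes tested by the Benjamini-Hochberg method, was under 0.05. The p-values measure the spread between these individual mice. The plate columns that held the libraries followed genotype and diet, so plate column and group cannot be told apart. Each column held the livers of only 2 ZTs, in separate rows, so ZT and plate position cannot be told apart either. On NC, males lay in rows A, B, E and F and females in rows C, D, G and H, with a few exceptions to this order on cdHFD. Sex and plate row therefore cannot be told apart on NC. The targeted gene, listed as Arntl, averaged from 0.748 to 20.2 CPM by ZT in Hep-Bmal1WT mice on NC and from 5.74 to 9.83 CPM in Hep-Bmal1KO mice on NC. The method reads 3′ ends, and where the deleted stretch lies in the transcript is not given in the sources used here, so this level was not taken as a check of the deletion. By the levels both of 10 clock genes and of 20 further genes, 7 of the 96 libraries lay nearer the other genotype at their diet and ZT, 2 in each group except Hep-Bmal1KO on cdHFD with 1. The genotype labels of these 7 may be wrong, which was not tested, and genotypes below are those of the libraries as labelled. The 20 genes, none of them described here, were picked from these data for genotype differences at the other ZTs of the diet. Genotype values without these 7 libraries are therefore descriptions. A further 5 libraries, all from males on NC, held more than 10 times the median Saa1 of their genotype and diet. Both sets were kept in the values given first, and values without one or the other set stand beside the main results whose calls they changed.

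The serum amyloid A genes lie side by side on chromosome 7 (GRCm38, the annotation's gene spans), with Saa3 at 46711998 to 46719615, Saa4 at 46727992 to 46732603, Saa1 at 46740497 to 46743181 and Saa2 at 46751833 to 46754313. Saa3 overlaps the predicted gene Gm31882. Orm1 (63344556 to 63348163) and Orm2 (63362449 to 63365877) lie on chromosome 4 on either side of their paralog Orm3, and Orm1 overlaps the predicted gene Gm52743. Hpx lies on chromosome 7 at 105591611 to 105600116, far from the Saa genes. Hp is on chromosome 8 (109575128 to 109579172), Lcn2 on chromosome 2 (32384637 to 32387739) and Fgb on chromosome 3 (83042246 to 83049863). Saa1 and Saa2 are nearly identical in sequence, as are the Orm genes, so the split of reads within each pair is uncertain.

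On the cdHFD, 7 of the 10 genes rose and 3 fell in Hep-Bmal1WT mice, so the set did not move as one. Lcn2 rose the most, 36.5-fold, followed by Saa3 at 9.29-fold and Orm2 at 3.73-fold, while Hp and Hpx rose by smaller factors of 2.37 and 2.05. Saa4, Orm1 and Fgb fell. In all genes tested the diet called 55.7% in Hep-Bmal1WT mice, 28.7% higher and 27% lower, so being called is common in this contrast. The median log2 difference of the 10 genes was 1.19, against 0.013 over all genes. In Hep-Bmal1KO mice 9 of the 10 were called, 6 higher and 3 lower, against 61.9% of all genes (32.4% higher and 29.6% lower). The 10 genes together took a median of 0.955% of all counts in Hep-Bmal1WT mice on NC and 2.22% on cdHFD, and 1.05% and 2.15% in Hep-Bmal1KO mice.

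**Figure D1:**
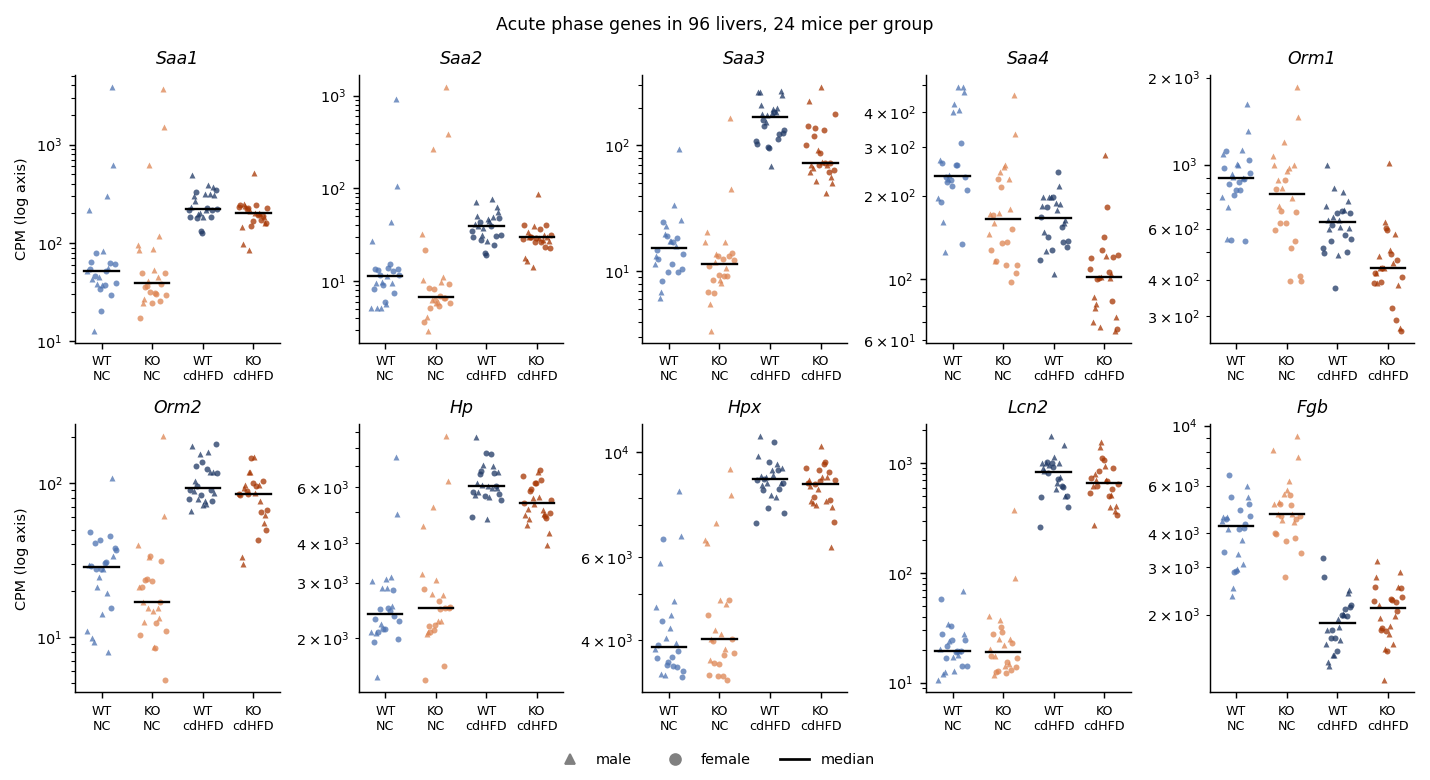
Level of each of the 10 genes in every liver (CPM, log axis) by genotype (WT for Hep-Bmal1WT, KO for Hep-Bmal1KO) and diet, males as triangles, females as circles and a bar at the median of the 24 mice of a group. Lcn2 of Hep-Bmal1WT mice is the 1 gene and genotype whose diets do not overlap (highest 68.6 CPM on NC, lowest 263 CPM on cdHFD), while Saa1 on NC spreads from 12.9 to 3873 CPM.

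Saa1 and Saa2 encode the circulating acute phase forms of serum amyloid A, which bind high-density lipoprotein. In Hep-Bmal1WT mice, Saa1 ran from 12.9 to 3873 CPM on NC with a median of 52.02 CPM, and from 126 to 493 CPM on cdHFD with a median of 224 CPM. In Hep-Bmal1KO mice, it ran from 17.2 to 3695 CPM on NC with a median of 39.5 CPM, and from 85.6 to 509 CPM on cdHFD with a median of 199.8 CPM. The diets overlapped and the highest NC livers passed every cdHFD liver, although most NC livers lay below the cdHFD range. Among the NC livers not set apart by Saa1, the highest still lay within the cdHFD range, at 298 CPM in Hep-Bmal1WT and 119 CPM in Hep-Bmal1KO mice. The rise had a log2 difference of 1.46 (SE 0.38, adjusted p = 8.8e-04) in Hep-Bmal1WT and 1.12 (SE 0.47, adjusted p = 0.035) in Hep-Bmal1KO mice. Without the 5 libraries set apart by Saa1 these became 2.07 and 2.18. The choice of those libraries used Saa1 itself, so for Saa1 and Saa2 the larger values are a description of the other livers. Saa1 was not called in Hep-Bmal1KO males alone (0.55, adjusted p = 0.47) nor without the libraries nearer the other genotype (0.90, adjusted p = 0.098).

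Saa2 followed Saa1 at its own scale. Its medians were 11.5 CPM on NC and 39.4 CPM on cdHFD in Hep-Bmal1WT mice, and 6.78 and 29.6 CPM in Hep-Bmal1KO mice. The highest livers on NC reached 925 CPM in Hep-Bmal1WT and 1247 CPM in Hep-Bmal1KO mice, far above the highest cdHFD livers of 76.8 and 87.5 CPM. Saa2 rose in Hep-Bmal1WT mice (log2 1.13, SE 0.38, adjusted p = 0.0093). In Hep-Bmal1KO mice it was the 1 gene of the 10 that was not called (0.49, SE 0.56, adjusted p = 0.45). Its value there was 1.93 (adjusted p = 9.9e-12) without the 5 libraries and 1.25 (adjusted p = 0.0094) without all ZT22 livers.

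Saa3 is the member of the family that macrophages and adipocytes also make. Its medians were 15.4 CPM on NC and 167.5 CPM on cdHFD in Hep-Bmal1WT mice. In Hep-Bmal1KO mice they were 11.4 and 72.8 CPM. The rise was 3.22 (SE 0.20, adjusted p = 3.5e-19) in Hep-Bmal1WT and 2.75 (SE 0.28, adjusted p = 4.0e-12) in Hep-Bmal1KO mice on the log2 scale. Saa4, the constitutive form that is carried on lipoprotein at rest, went the other way. Its median fell from 235 to 165 CPM in Hep-Bmal1WT mice (log2 -0.70, SE 0.12, adjusted p = 1.2e-06) and from 165 to 101 CPM in Hep-Bmal1KO mice (-0.79, SE 0.15, adjusted p = 7.9e-06). Within the cluster, then, the diet raised Saa3 and lowered its neighbor Saa4 in both genotypes.

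The orosomucoids, plasma glycoproteins that bind drugs and other small basic molecules, were likewise divided. Orm1 fell from a median of 900.2 CPM to 632 CPM in Hep-Bmal1WT mice (log2 -0.51, SE 0.088, adjusted p = 2.0e-06) and from 794 to 438 CPM in Hep-Bmal1KO mice (-0.85, SE 0.14, adjusted p = 9.7e-07). Orm2 rose from 28.4 to 93.2 CPM (1.90, SE 0.18, adjusted p = 3.9e-13) and from 16.9 to 85.8 CPM (1.80, SE 0.27, adjusted p = 7.0e-08). The highest Orm2 livers on NC, at 108 and 202 CPM, overlapped the cdHFD livers in each genotype. The lowly counted paralog Orm3 was not called for diet in either genotype (0.048 and 0.19, adjusted p = 0.92 and 0.63).

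Haptoglobin binds free hemoglobin and hemopexin binds free heme, and both rose in a narrow range. Hp medians went from 2397 to 6046 CPM in Hep-Bmal1WT mice (log2 1.25, SE 0.10, adjusted p = 9.4e-15) and from 2494 to 5348 CPM in Hep-Bmal1KO mice (0.91, SE 0.13, adjusted p = 1.8e-08). Hpx medians went from 3861 to 8751 CPM (1.03, SE 0.080, adjusted p = 4.3e-16) and from 4009 to 8579 CPM (0.88, SE 0.094, adjusted p = 1.4e-11). The cdHFD livers of Hp stayed between 3953 and 8641 CPM and those of Hpx between 6293 and 10801 CPM, so neither gene varied by as much as 3-fold on that diet.

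Lipocalin 2 binds bacterial siderophores and is also stored in neutrophil granules. In Hep-Bmal1WT mice it ran from 10.5 to 68.6 CPM on NC (median 19.5 CPM) and from 263 to 1761 CPM on cdHFD (median 834 CPM), with no overlap between the diets. That separation of 24 from 24 livers was seen for 3.74% of all genes, 2.2% in this direction. In Hep-Bmal1KO mice Lcn2 ran from 11.7 to 372 CPM on NC (median 18.8 CPM) and from 273 to 1577 CPM on cdHFD (median 669 CPM), and 1 NC liver at ZT22 lay within the cdHFD range. None of the 10 genes was separated there, against 5.74% of all genes. The log2 rise was 5.19 (SE 0.20, adjusted p = 1.1e-27) in Hep-Bmal1WT and 4.71 (SE 0.32, adjusted p = 2.1e-18) in Hep-Bmal1KO mice, where it was 26.1-fold.

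The fibrinogen beta chain, 1 of the 3 chains of the clotting protein, fell with the diet. Fgb medians were 4246 CPM on NC and 1859 CPM on cdHFD in Hep-Bmal1WT mice (log2 -1.11, SE 0.079, adjusted p = 2.8e-17), and 4723 and 2110 CPM in Hep-Bmal1KO mice (-1.30, SE 0.086, adjusted p = 1.5e-18). Each genotype still had cdHFD livers, up to 3237 and 3158 CPM, that reached into its NC range.

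Markers of other cell types moved with the diet as well, and in bulk samples fewer cells of a type and less RNA per cell cannot be told apart. Of the 10 macrophage markers, 10 rose in each genotype, and their summed level went from a median of 444 CPM (229 to 620 CPM) to 1990 CPM (1030 to 2703 CPM) in Hep-Bmal1WT mice and from 414 to 2138 CPM in Hep-Bmal1KO mice. Of 8 tested neutrophil markers, 6 and 7 rose, from a summed median of 12.3 to 90.7 CPM and from 11.6 to 102 CPM. The defining neutrophil markers Ly6g and Mpo were at 0 in every Hep-Bmal1WT liver on NC. Of 9 stellate cell markers, 8 and 9 rose, and of 6 cholangiocyte markers 3 and 4. Of 7 endothelial cell markers, 4 rose and 2 fell in each genotype. Of 4 adipocyte markers, 1 rose in each genotype and 2 fell in Hep-Bmal1WT mice. Of 7 T and B cell markers, 3 rose in Hep-Bmal1WT mice, while 2 rose and 1 fell in Hep-Bmal1KO mice. All 8 hepatocyte markers fell in both genotypes, and their sum went from 144341 to 68697 CPM and from 95190 to 56877 CPM. Most of this sum was Alb and Ttr (means of 111400 and 25060 CPM in Hep-Bmal1WT mice on NC). Both are also counted among the negative acute phase genes below. Over all genes, 28.7% rose and 27% fell in Hep-Bmal1WT mice, and 32.4% rose and 29.6% fell in Hep-Bmal1KO mice. The part of these marker shifts in the levels of Saa3, Lcn2 or the other genes was not tested.

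**Figure D2:**
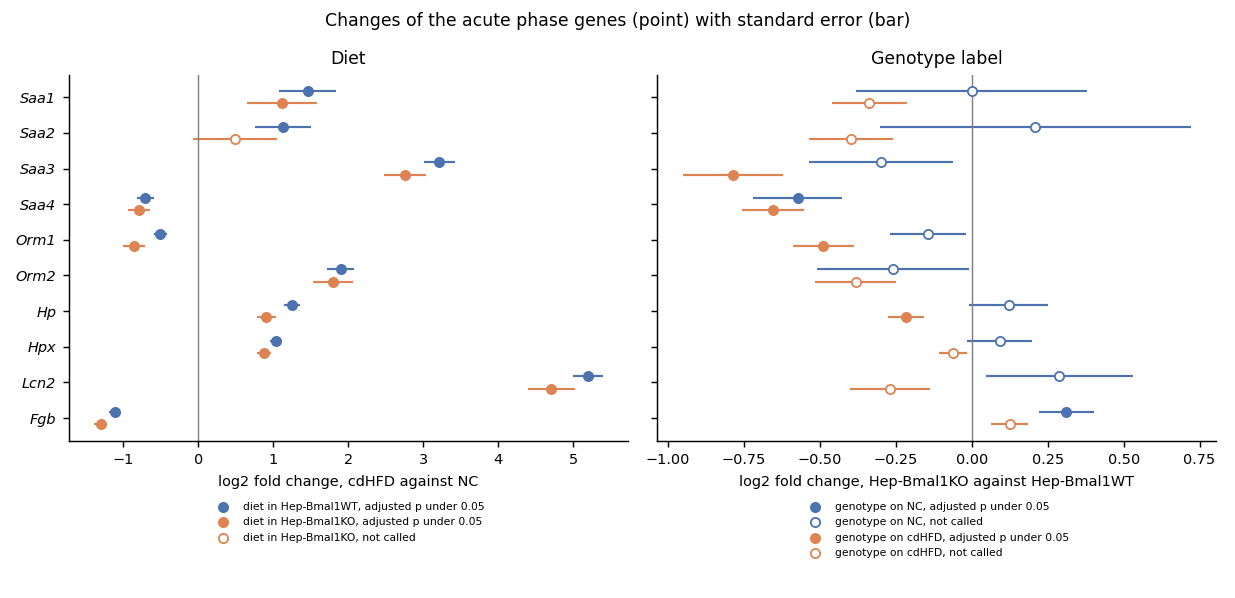
log2 fold change (point) with SE (bar) of each of the 10 genes for the diet in each genotype (left, cdHFD minus NC) and for the genotype on each diet (right, Hep-Bmal1KO minus Hep-Bmal1WT), 48 livers in each comparison, filled where called by edgeR. The diet differences run from -1.30 for Fgb to 5.19 for Lcn2, whereas the genotype differences stay between -0.79 for Saa3 and 0.31 for Fgb on a narrower axis.

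The largest differences between the genotypes were much smaller than the largest between the diets. For Saa4 on both diets and for Orm1 on cdHFD, the genotype difference came near the diet difference in Hep-Bmal1WT mice. On cdHFD the genotype differences that were called all pointed down in Hep-Bmal1KO mice. On NC, 2 of the 10 genes were called, against 12.6% of all genes (7% higher and 5.61% lower). Saa4 was lower in Hep-Bmal1KO mice (log2 -0.57, SE 0.15, adjusted p = 0.0052), with medians of 235 and 165 CPM. Fgb was higher (0.31, SE 0.090, adjusted p = 0.015), with medians of 4246 and 4723 CPM. The Fgb difference was 0.62 (adjusted p = 9.5e-06) in males alone and -0.025 (adjusted p = 0.93) in females alone, and it was not called without the 5 libraries (0.24, adjusted p = 0.056). The other 8 genes lay between -0.30 for Saa3 and 0.29 for Lcn2, with adjusted p from 0.49 to 0.9998. Saa3 was called lower without those 5 libraries (-0.48, adjusted p = 0.039) and without ZT22 (-0.55, adjusted p = 0.024). The 5 libraries were picked by Saa1, with which Saa3 varied between mice on NC (r = 0.80), so the first of these values is a description.

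On cdHFD, Saa3, Saa4, Orm1 and Hp were lower in Hep-Bmal1KO mice and no gene was higher, against 9.61% of all genes called (4.62% higher and 4.99% lower). Saa3 differed most. In Hep-Bmal1WT mice it ran from 68.3 to 269 CPM with a median of 167.5 CPM, and in Hep-Bmal1KO mice from 42.05 to 292 CPM with a median of 72.8 CPM (log2 -0.79, SE 0.17, adjusted p = 8.9e-04). The highest Hep-Bmal1KO value and the lowest Hep-Bmal1WT value both came from libraries at ZT14 that lay nearer the other genotype. Saa4 ran from 104 to 244 CPM in Hep-Bmal1WT and from 65.1 to 280 CPM in Hep-Bmal1KO mice (-0.65, SE 0.10, adjusted p = 1.4e-05), and the same pair of ZT14 libraries held the same extremes. Orm1 ran from 373 to 993 CPM and from 267 to 1010 CPM (-0.49, SE 0.099, adjusted p = 5.7e-04). Without the libraries nearer the other genotype the differences were -0.95 for Saa3, -0.77 for Saa4 and -0.61 for Orm1 (adjusted p = 4.0e-06, 1.1e-09 and 1.2e-07). Hp differed least among the called genes (-0.22, SE 0.059, adjusted p = 0.011) and was not called without ZT22 (-0.19, adjusted p = 0.071). The genotypes overlapped for all 10 genes on both diets, as they did for all genes tested (0% without overlap).

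At single ZTs, with 4 mice against 4, none of the 10 genes was called for genotype by edgeR on either diet, against 0.851% of the pairs of gene and ZT over all genes on NC and 0.413% on cdHFD. Without the 7 libraries nearer the other genotype, 2 of the 60 pairs were called on NC, against 2.64% of all pairs in that fit, and 5 on cdHFD, against 0.939%. On NC these were Fgb higher at ZT10 (log2 0.80, adjusted p = 0.022) and Saa4 lower at ZT18 (-1.28, adjusted p = 0.048). On cdHFD they were Saa4 lower at ZT2, ZT10 and ZT22, from -0.80 to -0.85, and Orm1 lower at ZT2 and ZT22 (-0.76 and -0.96). With all libraries the smallest adjusted p was that of Orm1 at ZT22 on cdHFD (log2 -0.96, adjusted p = 0.059). An unadjusted p under 0.05 was reached on cdHFD by Saa4 at 5 of the 6 ZTs, by Orm1 at 4 and by Saa3 at 3, and these genes had lower means in Hep-Bmal1KO mice at 6 of 6 ZTs. On NC the same held for the means of Saa4, with 2 ZTs at an unadjusted p under 0.05. These counts split by ZT the same livers that gave the calls over all ZTs, so they are not separate support. No share of all genes at an unadjusted p stands beside them.

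The remaining 6 genes were not called on cdHFD. Saa1 (-0.34, adjusted p = 0.072), Saa2 (-0.40, adjusted p = 0.055) and Orm2 (-0.38, adjusted p = 0.057) fell just short. Lcn2 was at -0.27 (adjusted p = 0.22), Hpx at -0.063 (adjusted p = 0.46) and Fgb at 0.12 (adjusted p = 0.22). Without the libraries nearer the other genotype, Saa1, Saa2 and Orm2 were called as well, 7 of 10 in all, against 13% of all genes. As those libraries were picked by levels that lay against their genotype label, this count is a description. In females alone only Saa4 (-0.49, adjusted p = 0.0039) and Orm1 (-0.44, adjusted p = 0.019) were called. On this diet 3 of 8 neutrophil, 7 of 9 stellate cell and 4 of 6 cholangiocyte markers were higher in Hep-Bmal1KO livers, and 1 of 8 hepatocyte markers was lower. Of 10 macrophage markers, Lyz2 was higher (0.35) and Clec4f lower (-0.35), and of 4 adipocyte markers Cidec was lower (-0.34). Over all genes, 4.62% were higher and 4.99% lower on this diet. The part of the marker changes in these differences was not tested.

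Whether the diet acted differently in the 2 genotypes was tested as an interaction, and none of the 10 genes was called by edgeR or by DESeq2, against 3.04% of all genes. At an unadjusted p under 0.05 there were 3 (n = 96), Orm1 (-0.34, p = 0.039), Hp (-0.34, p = 0.021) and Lcn2 (-0.56, p = 0.048). The share of all genes at this unadjusted p is not given, so the count of 3 is a description. The same 3 genes were called in males alone, each lower (adjusted p = 0.043, 0.041 and 0.022), against 3% of all genes, and none in females alone. For Lcn2 the difference in males was -1.25, and over both sexes it was -0.18 (adjusted p = 0.70) without the 5 libraries.

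The paralog Orm3 was lower in Hep-Bmal1KO mice on both diets, at -1.53 (SE 0.44, adjusted p = 0.015) on NC and -1.36 (SE 0.22, adjusted p = 3.0e-05) on cdHFD. Its group means ran from 1.18 to 3.92 CPM, and how reads were split between it and its abundant neighbors is uncertain.

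On NC, the males at ZT22 stood far from the females at ZT22. In Hep-Bmal1WT mice at ZT22, Saa1 was at 3873 and 626 CPM in the 2 males and at 61.3 and 39.6 CPM in the 2 females. In Hep-Bmal1KO mice it was at 3695 and 1506 CPM in the males and at 49.3 and 29.8 CPM in the females. All 4 males lay above all 4 females, and their mean was 53.9 times that of the females. At the other ZTs, males on NC had a median Saa1 of 52.8 CPM and did not go above 621 CPM, a value from 1 Hep-Bmal1KO male at ZT10 that lay close to the lowest of the ZT22 males and was above it for Saa2 (269 against 106 CPM) and Hp (5212 against 4943 CPM).

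The same 4 males were above the same 4 females for 9 of the 10 genes, all except Orm2, a separation in this direction that 4.01% of all genes showed. Since 4 of these libraries had been picked out by Saa1, this is a description without a test. The ratio of means was 65.96 for Saa2, 8.00 for Lcn2, 6.51 for Saa3, 2.96 for Hp, 2.67 for Saa4, 2.25 for Orm1, 2.22 for Hpx and 1.58 for Fgb. Orm2 was at 108 and 33.7 CPM in Hep-Bmal1WT males and at 202 and 61.04 CPM in Hep-Bmal1KO males, and the lowest of these lay below 2 of the 4 females (38.1 and 36.9 CPM). Even Saa4, Orm1 and Fgb, which fell on the cdHFD, were higher in these males.

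The levels in these males did not follow those of the cdHFD livers gene by gene. Saa1 and Saa2 were above every cdHFD liver in all 4 males, whereas Lcn2 was at 68.6 and 27.5 CPM in the Hep-Bmal1WT males and at 372 and 89.1 CPM in the Hep-Bmal1KO males, so that 3 of the 4 lay below the lowest cdHFD liver of either genotype. Summed macrophage markers ran from 444 to 587 CPM in these males and from 459 to 645 CPM in the females, and summed neutrophil markers from 15.7 to 46.7 CPM and from 10.4 to 31.4 CPM. Of the 28 other positive acute phase genes tested there, 7 were above the females in all 4 males, among them Lrg1 (4.08-fold) and Serpina3n (2.41-fold). Another 3 were below, among them Hamp (0.503-fold). Over all genes, 7.82% were separated in 1 direction or the other.

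**Figure D3:**
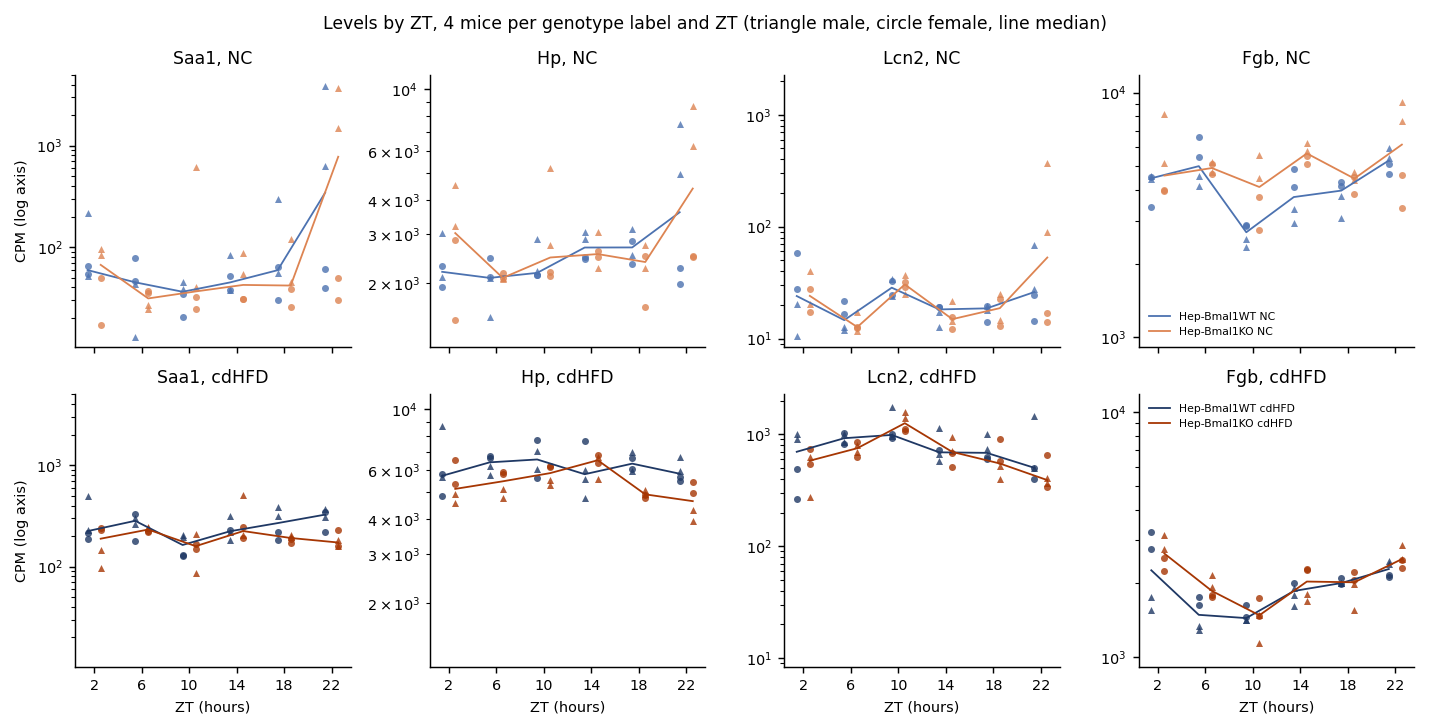
Level of Saa1, Hp, Lcn2 and Fgb (CPM, log axis) in individual livers by ZT, males as triangles and females as circles, on NC (upper row) and cdHFD (lower row), with the median of each genotype at each ZT as a line. At ZT22 the NC males reach from 626 to 3873 CPM of Saa1 while the NC females stay between 29.8 and 61.3 CPM.

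Across all 96 livers, with each combination of genotype, diet and ZT held fixed, 4 of the 10 genes were lower in females, against 17.2% of all genes (8.99% higher and 8.24% lower). These were Saa1 (log2 -0.83, SE 0.22, adjusted p = 0.0041), Saa2 (-0.75, SE 0.25, adjusted p = 0.024), Orm1 (-0.38, SE 0.071, adjusted p = 2.4e-05) and Hpx (-0.19, SE 0.054, adjusted p = 0.0070). Saa1 (-0.43, adjusted p = 0.014) and Orm1 (-0.29, adjusted p = 4.2e-04) were still called without the 5 libraries, while Saa2 (-0.25, adjusted p = 0.18) and Hpx (-0.082, adjusted p = 0.20) were not. The difference between the sexes depended on diet for Saa1, Saa4, Hp and Hpx (adjusted p = 0.018, 0.024, 0.0016 and 0.0043), against 7.91% of all genes, and for none of them without the 5 libraries (adjusted p = 0.25, 0.23, 0.052 and 0.13) or without ZT22. It did not depend on genotype for any of the 10 by edgeR, against 0.0386% of all genes. At an unadjusted p under 0.05 there was Fgb alone (n = 96, p = 9.5e-05, adjusted p = 0.11), and the share of all genes at that unadjusted p is not given.

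At single ZTs, 47 of the 60 pairs of gene and ZT were called for diet in Hep-Bmal1WT mice, against 26.9% of such pairs over all genes, and 41 in Hep-Bmal1KO mice, against 32.5%. Lcn2 and Fgb were called at all 6 ZTs in both genotypes. Lcn2 was higher by a log2 difference of 4.43 at ZT22 to 5.90 at ZT6 in Hep-Bmal1WT and of 1.84 at ZT22 to 5.78 at ZT6 in Hep-Bmal1KO mice. Saa3, Orm2 and Hpx rose at 6 ZTs in Hep-Bmal1WT and at 5 in Hep-Bmal1KO mice, and Hp at 5 in both. The ZT not called for Hp in Hep-Bmal1WT mice was ZT22 (0.53, adjusted p = 0.083).

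For Saa1 and Saa2 the direction changed with ZT. Saa1 was higher on cdHFD at ZT6, ZT10 and ZT14 in Hep-Bmal1WT mice, from 2.16 to 2.59, and lower at ZT22 (-1.88, SE 0.71, adjusted p = 0.043). In Hep-Bmal1KO mice it was higher at ZT6 and ZT14 and lower at ZT22 (-2.85, SE 0.83, adjusted p = 0.0060). Saa2 was lower at ZT22 by -2.41 (adjusted p = 0.0050) and -3.89 (adjusted p = 8.8e-04). The NC side of these ZT22 differences is the 2 males of each genotype described above. Without the 5 libraries Saa1 and Saa2 were higher on cdHFD at ZT22, with log2 differences of 2.66 and 2.01 (adjusted p = 0.0023 and 0.0058) in Hep-Bmal1WT mice and of 2.20 and 1.87 (adjusted p = 0.0016 and 0.0054) in Hep-Bmal1KO mice, each against the 2 females on NC. Saa4 and Orm1, called lower at ZT22 in both genotypes, were not called there without them (adjusted p from 0.090 to 0.57), whereas Hp was called higher at ZT22 in both (1.52 and 0.90).

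Fgb showed the most regular change over the day. Its mean in Hep-Bmal1WT mice on NC was lowest at ZT10 (2652 ± 268 CPM, mean ± SD of 4 mice) and highest at ZT22 (5288 ± 554 CPM). On cdHFD it was lowest at ZT10 (1485 ± 104 CPM) and highest at ZT2 (2327 ± 804 CPM). Rhythm was tested by fitting a cosine of 24 h to variance-stabilized log2 values and was called where the unadjusted p was under 0.01. Fgb was called in Hep-Bmal1WT mice on NC (n = 24, amplitude 0.33, peak at 0.011 h, p = 0.0055), in Hep-Bmal1WT mice on cdHFD (n = 24, 0.33, peak at 21.4 h, p = 4.9e-04) and in Hep-Bmal1KO mice on cdHFD (n = 24, 0.35, peak at 23.2 h, p = 1.2e-04). In Hep-Bmal1KO mice on NC it was not called (n = 24, amplitude 0.11, p = 0.61). The NC call in Hep-Bmal1WT mice did not pass without its libraries set apart by Saa1 (n = 22, p = 0.026), where the amplitude was 0.30 and the peak at 0.30 h.

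Of the other 9 genes none was called rhythmic in Hep-Bmal1WT mice on either diet, against 17.9% of all genes on NC and 15.1% on cdHFD, and none of the 10 in Hep-Bmal1KO mice on NC, against 8.15%. In Hep-Bmal1KO mice on cdHFD 5 of the 10 were called, against 7.44% of all genes. Besides Fgb these were Lcn2 (n = 24, amplitude 0.67, peak at 10.2 h, p = 1.5e-04), Orm2 (0.51, 11.3 h, p = 0.0048), Orm1 (0.36, 11.3 h, p = 0.0070) and Hp (0.19, 10.9 h, p = 0.0034). These 4 peaked between 10.2 and 11.3 h, near the end of the light phase, and Fgb near the end of the dark phase. Lcn2 in these mice was at 1399, 1577, 1115 and 1072 CPM at ZT10 and at 370, 410, 335 and 655 CPM at ZT22, with no overlap. After adjustment over all genes, Lcn2 (adjusted p = 0.021) and Fgb (adjusted p = 0.020) remained past 0.05, against 2.37% of all genes. In females alone none of the 5 was called. Without the 1 library of this group nearer the other genotype, Orm2 just missed the threshold (n = 23, amplitude 0.47, p = 0.0102) and the other 4 were called. In Hep-Bmal1WT mice on NC, Saa4 (n = 22, amplitude 0.50, p = 9.9e-04) and Orm1 (n = 22, 0.30, p = 0.0099) were called beside Fgb without the libraries nearer the other genotype, against 16.8% of all genes.

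The difference in rhythm itself was tested with edgeR, as cosine and sine terms by genotype. None of the 10 was called on NC, against 0.392% of all genes, or on cdHFD, against 0.424%. At an unadjusted p under 0.05 there were none on NC and 4 on cdHFD (n = 48), Saa1 (p = 0.030), Saa2 (p = 0.023), Orm1 (p = 0.0060) and Orm2 (p = 0.0032). The share of all genes at this unadjusted p is not given, so the count of 4 is a description. By diet, Saa1 (adjusted p = 0.0069) and Saa2 (adjusted p = 0.0073) were called in Hep-Bmal1WT mice, against 6.19% of all genes, and Lcn2 (adjusted p = 0.025) in Hep-Bmal1KO mice, against 0.907%. All 3 calls were lost without the 5 libraries, with adjusted p of 0.57 for Saa1, 0.81 for Saa2 and 0.18 for Lcn2, and that of Lcn2 was lost in each fit without 1 replicate of every combination.

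A fit of a common cosine with its own mean level, amplitude and peak in each group was called at an unadjusted p under 0.05. Between genotypes the mean level differed for 2 of the 10 genes on NC, against 22.2% of all genes, and for 8 on cdHFD, against 21.1%. Without the 5 libraries the NC count was 6, against 20% of all genes, with Saa2, Saa3, Saa4, Orm1 and Orm2 lower and Fgb higher in Hep-Bmal1KO mice. Those libraries were picked by Saa1, with which these 6 genes varied between mice on NC (r from 0.63 to 0.95). They came unevenly from the genotypes, leaving 22 Hep-Bmal1WT and 21 Hep-Bmal1KO livers, so the count of 6 is a description. The amplitude differed for none on NC, against 4.12%, and for 2 on cdHFD, against 2.93%. These were Orm1 (0.30 higher in Hep-Bmal1KO mice, SE 0.13, n = 48, p = 0.030) and Orm2 (0.41 higher, SE 0.19, n = 48, p = 0.032), and neither passed after adjustment over all genes. Between diets the mean level differed for all 10 genes in both genotypes, against 60.2% of all genes in Hep-Bmal1WT and 64.8% in Hep-Bmal1KO mice. The amplitude differed for 1 gene in Hep-Bmal1WT mice, against 7.92%, and for none in Hep-Bmal1KO mice, against 4.25%. That gene was Saa1 (0.92 lower on cdHFD, SE 0.44, n = 48, p = 0.042), and it was not called without the 5 libraries (n = 46, p = 0.45). In Hep-Bmal1KO mice, Lcn2 (0.60 higher on cdHFD, n = 45, p = 0.0031) and Fgb (0.35 higher, n = 45, p = 0.0081) were called without them, against 4.59% of all genes. Without the libraries nearer the other genotype, Saa1, Saa4 and Orm1 were called in Hep-Bmal1WT mice, against 7.83%, and Fgb in Hep-Bmal1KO mice, against 4.26%. The peak of Fgb could be compared on cdHFD, where it was 1.76 h later in Hep-Bmal1KO mice (SE 1.08, n = 48, p = 0.11), and in Hep-Bmal1WT mice, where it was 2.60 h earlier on cdHFD than on NC (SE 1.32, n = 48, p = 0.055), neither past the threshold.

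**Figure D4:**
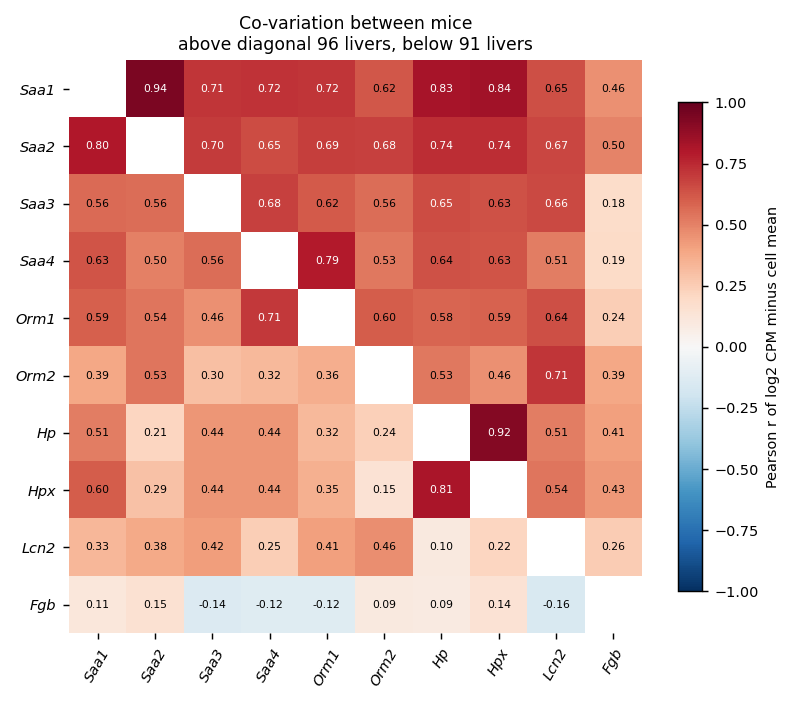
Co-variation between mice of the 45 pairs of the 10 genes, as Pearson r (color and number) of log2 CPM after removal of the mean of each combination of genotype, diet and ZT, over all 96 livers above the diagonal and over the 91 livers left without those set apart by Saa1 below it. The r of Saa1 with Saa2 is 0.94 over all livers and 0.80 without them, while that of Saa3 with Fgb goes from 0.18 to -0.14.

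Between mice of the same genotype, diet and ZT, the 10 genes tended to be high or low together. All 45 pairs had a Pearson r above 0 over the 96 livers, from 0.18 to 0.94 with a median of 0.63. Saa1 with Saa2 had the highest (r = 0.94, Spearman rho = 0.85). The permutation p within combinations was 1e-05 for each, the smallest that the 100000 draws can give, and the adjusted p over the 45 pairs was 2.1e-05 for r and 3e-05 for rho. Past an adjusted p of 0.05 were 41 pairs by Pearson and 35 by Spearman correlation. Each combination held both sexes and sex was not removed, so differences between the sexes that genes share remain in these correlations. Pairs of other genes were not computed, so no share over all genes stands beside these counts. The range without the 2 livers farthest from the median was 0.055 to 0.92. Without the 5 libraries 41 of 45 were above 0, the median was 0.38, and the 4 pairs below 0 were those of Fgb with Saa3, Saa4, Orm1 and Lcn2.

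Fgb parted from the others on cdHFD. Within NC all 45 r were above 0 (median 0.68), and within cdHFD 36 were, from -0.39 to 0.93 with a median of 0.47. The 9 pairs below 0 on cdHFD were all those of Fgb, from -0.39 with Orm1 to -0.21 with Saa4. Saa4 and Orm1, which fell with the diet, varied together between mice (r = 0.79, rho = 0.72, permutation p = 1e-05 for each, r = 0.71 without the 5 libraries), as did Hp and Hpx (r = 0.92, rho = 0.80, permutation p = 1e-05 for each, r = 0.81 without them). All values share the same library scaling and the same mice.

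The other genes of the acute phase response were counted from lists of known members. Of the 29 other positive acute phase genes tested, 11 rose and 14 fell with the diet in Hep-Bmal1WT mice, and 9 rose and 13 fell in Hep-Bmal1KO mice, against 28.7% and 27% of all genes in Hep-Bmal1WT and 32.4% and 29.6% in Hep-Bmal1KO mice. Cd14, the lipopolysaccharide co-receptor, rose 8.39-fold and 9.96-fold, and Steap4, a metalloreductase, rose 3.19-fold in Hep-Bmal1WT mice. Il1rn, the IL1 receptor antagonist, rose 13.3-fold in Hep-Bmal1KO mice. Plg, plasminogen, fell by 0.99 on the log2 scale in Hep-Bmal1WT mice and Crp, C-reactive protein, fell by 1.33 in Hep-Bmal1KO mice. The median log2 difference of this list was -0.22 and -0.075, against 0.013 and 0.023 over all genes.

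Of 10 negative acute phase genes, whose products usually drop in the response, 8 fell and 2 rose with the diet in each genotype, against 55.7% and 61.9% of all genes called for diet in either direction. Transthyretin (Ttr) fell by 1.23 and 1.27 on the log2 scale, while the lipoprotein gene Apoa4 rose 12.9-fold and 15.6-fold. Between genotypes, 4 of the 10 were lower in Hep-Bmal1KO mice on each diet, against 5.61% of all genes on NC and 4.99% on cdHFD, among them Rbp4, a retinol carrier, on both (-0.20 and -0.24), and 1 was higher on cdHFD, against 4.62%. Albumin (Alb) was lower on NC (-0.83, SE 0.15, adjusted p = 5.7e-05).

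Of the 10 ligand genes listed, 6 passed the count filter, and Il6 was not among them. Il1b rose 3.37-fold and 3.02-fold with the diet in Hep-Bmal1WT and Hep-Bmal1KO mice, Il1a 2.75-fold and 2.58-fold, and Tnf 10.6-fold and 10.1-fold from a mean near 0.1 CPM. Of 12 receptor genes, 7 rose in each genotype, such as Tlr2 (6.50-fold and 7.93-fold), and 3 and 2 fell, among them Lifr (-2.27 and -1.96) and Il1rap (-1.28 and -1.37). That is 10 and 9 of the 12 called, against 55.7% and 61.9% of all genes. Lifr (-0.50, adjusted p = 3.3e-04) and Il6ra, the IL6 receptor (-0.65, adjusted p = 0.0025), were also lower in Hep-Bmal1KO mice on NC.

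Of 25 genes for signalling and transcription factors, 11 rose and 6 fell in Hep-Bmal1WT mice, and 12 rose and 6 fell in Hep-Bmal1KO mice, against the same shares of all genes. The NF-kappaB subunit gene Nfkb2 rose 3.38-fold and 3.02-fold, and Hnf4a, a hepatocyte factor, fell by 0.81 and 0.77 on the log2 scale. Between genotypes, 5 of the 25 were lower in Hep-Bmal1KO mice on NC and none higher, and 6 were lower and 1 higher on cdHFD. Over all genes 5.61% were lower and 7% higher on NC, and 4.99% lower and 4.62% higher on cdHFD. Hnf4a was lower on both diets (-0.29 and -0.25), Cebpb on NC (-0.32, adjusted p = 0.0027) and Cebpa on cdHFD (-0.48, adjusted p = 2.3e-04). Of 9 genes tested for uptake and breakdown of the secreted proteins and their cargo, Hmox1, which degrades heme, rose 4.46-fold and 5.63-fold.

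As a description over the means of the 24 combinations, the genes outside the set most like Saa1 were Tmem221 (r = 0.88), Folr2 (0.87) and Lrg1 (0.86), and those most like Orm1 were Cyp3a13 (0.92), Lpgat1 (0.91) and Lin7a (0.91). Over the same means Saa1 itself had r of 0.97 with Saa2 and -0.57 with Fgb. These means share the diet contrast, so the values follow it.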

How the data were processed

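RNA from 96 mouse livers was read by BRB-seq on 1 plate. Per the labels and the study's methods, the authors demultiplexed the reads, aligned them to mm10 with STAR and deposited raw read counts per gene, with HTSeq and featureCounts both named for counting. Whether counts were collapsed by molecular identifier is not given in the sources used here. Reads that named no gene were left out of library sizes (14.8% to 34.0% not aligned and 5.65% to 11.3% in no feature).

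Counts were scaled by TMM and tested with edgeR 4.0.16 in R 4.3.3 (quasi-likelihood, Benjamini-Hochberg over 15548 genes), with ZT as a factor and 48 libraries in each comparison within a diet or genotype. Rhythm was fitted as a cosine of 24 h to values transformed by DESeq2 1.42.0. Scripts were tested on simulated data. Replicate numbers follow accession order and mark no pairs. On NC, replicates 1 and 2 were males and replicates 3 and 4 females, so leaving out 1 replicate removed mice of 1 sex there. The same held on cdHFD except at ZT2, where the order was reversed, and for replicate 3 of Hep-Bmal1WT mice at ZT14, a male. The libraries set apart by Saa1 were all replicate 1 or 2.

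The 10 genes, the gene lists and the tests were chosen with earlier results of these data known. Of each list, up to 3 called genes of smallest adjusted p could be named in each comparison, and the genes named for likeness to Saa1 and Orm1 were the 3 of highest r. Fits that left out the 5 libraries set apart by Saa1, or ZT22, and all alternatives to the tests of rhythm differences and of single ZTs were added after seeing the data. The other alternatives were another tool, scaling or filter, sex as a covariate, each sex alone, each replicate left out, and the 7 libraries nearer the other genotype left out. Marker names and gene positions came from the count table and RefSeq's GRCm38.p6 gene table.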

Additional observations from a re-analysis of the deposited data

Results flagged for a closer look

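Each gene was checked in each combination of genotype, diet and ZT for a liver far from the other 3, by Dixon's criterion at 95%. Of the 240 sets of 4 livers, 23 held such a liver, 19 of them the highest and 4 the lowest of its set, in 17 libraries, where chance gives about 12, or 1 in 20.

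Saa1 and Saa2 held 11 of these. In Hep-Bmal1WT mice on NC, Saa1 was high at ZT2 (217 CPM in replicate 2), at ZT18 (298 CPM in replicate 1) and at ZT22 (3873 CPM in replicate 1), and Saa2 at ZT18 (43.9 CPM in replicate 1) and at ZT22 (925 CPM in replicate 1). In Hep-Bmal1KO mice on NC, replicate 2 at ZT10, a male, was high for both, at 621 CPM of Saa1 and 269 CPM of Saa2. On cdHFD, Saa1 was high in Hep-Bmal1WT mice at ZT2 (493 CPM in replicate 4), and replicate 1 of Hep-Bmal1KO mice at ZT14, a library nearer the other genotype, was high for Saa1 (509 CPM) and Saa2 (87.5 CPM). Saa2 of Hep-Bmal1KO mice on cdHFD was also high at ZT6 (33.9 CPM in replicate 1).

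Saa3 in Hep-Bmal1WT mice on NC was high at ZT6 (24.9 CPM in replicate 4) and low at ZT14 (11.5 CPM in replicate 3). On cdHFD it was low in replicate 1 of Hep-Bmal1WT mice at ZT14 (68.3 CPM), a library nearer the other genotype. Saa4 was low in replicate 3 of Hep-Bmal1WT mice on cdHFD at ZT10 (127 CPM), also a library nearer the other genotype. Replicate 4 of Hep-Bmal1KO mice on cdHFD at ZT22 was high for Saa3 (179 CPM) and Saa4 (123 CPM).

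Orm2 was high in Hep-Bmal1WT mice at ZT22 on NC (108 CPM in replicate 1) and at ZT14 on cdHFD (124 CPM in replicate 4). Hp was high in Hep-Bmal1WT mice on NC at ZT10 (2887 CPM in replicate 2). Lcn2 was high in Hep-Bmal1WT mice on cdHFD at ZT10 (1761 CPM in replicate 2) and ZT22 (1473 CPM in replicate 1). Fgb was low in Hep-Bmal1WT mice on NC at ZT2 (3406 CPM in replicate 3).

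The difference between the sexes differed between diets by edgeR's interaction test for Saa1 (log2 1.45), Saa4 (0.56), Hp (0.56) and Hpx (0.40), each with females relatively higher on cdHFD than on NC. None was called without the 5 libraries set apart by Saa1, all males on NC, or without ZT22. The daily pattern differed between diets in Hep-Bmal1WT mice for Saa1 (adjusted p = 0.0069) and Saa2 (adjusted p = 0.0073) and in Hep-Bmal1KO mice for Lcn2 (adjusted p = 0.025). None of the 3 was called without the 5 libraries (adjusted p = 0.57, 0.81 and 0.18).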

How the results depend on the processing

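Counts below are of the 10 genes called. The diet counts stayed at 10 in Hep-Bmal1WT mice under every alternative, and ran from 8 to 10 in Hep-Bmal1KO mice, 8 to 9 with 1 replicate of each combination left out. The share of all genes called ran from 33.1% to 63.1% in Hep-Bmal1WT and from 38.2% to 67.7% in Hep-Bmal1KO mice. The genotype count on NC was 2 in the report (Saa4 lower, Fgb higher), 1 to 2 with 1 replicate left out, 3 in females alone (all lower) and 3 without ZT22 (2 lower, 1 higher). The shares of all genes were 12.6%, 6.05% to 10.5%, 3.72% and 9.85%, in that order. On cdHFD the genotype count was 4 in the report, 3 to 5 with 1 replicate left out, 7 with no filter on low counts, 7 without the libraries nearer the other genotype and 2 in females alone. The shares of all genes were 9.61%, 3.36% to 8.85%, 5.79%, 13% and 4.16%, in that order. The genotype by diet count was 0 with each replicate left out (0.662% to 2.4% of all genes) and 3 in males alone (3% of all genes). The sex count went from 4 to 8 with no filter, to 2 without the 5 libraries set apart by Saa1, to 2 without ZT22, and to 1 to 4 with 1 replicate left out. Over all genes the shares were 17.2%, 9.57%, 14.9%, 14.9% and 10.2% to 12.4%, in that order. The sex by diet count went from 4 (7.91% of all genes) to 0 without the 5 libraries (7.12%) and to 0 without ZT22 (5.89%). Pairs of gene and ZT called for genotype went from 0 to 2 on NC and to 5 on cdHFD without the libraries nearer the other genotype, and were 0 to 4 on cdHFD with 1 replicate left out. The shares of all pairs went from 0.851% to 2.64% on NC and from 0.413% to 0.939% on cdHFD. With 1 replicate left out they were 0.0965% to 0.453% on cdHFD.

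The rhythm count in Hep-Bmal1WT mice on NC was 1, against 4 by edgeR, 2 in males, 0 in females, 3 without the libraries nearer the other genotype, 0 without the 5 libraries and 0 to 2 with 1 replicate left out. In Hep-Bmal1KO mice on NC it was 0, against 2 by edgeR. In Hep-Bmal1WT mice on cdHFD it was 1, against 0 in females and 0 to 2 with 1 replicate left out. In Hep-Bmal1KO mice on cdHFD it was 5, against 0 in females, 2 at an adjusted p under 0.05 and 2 to 4 with 1 replicate left out. Rhythm by diet went in Hep-Bmal1WT mice from 2 to 0 without the 5 libraries and to 0 to 3 with 1 replicate left out, and in Hep-Bmal1KO mice from 1 to 0 without the 5 libraries and to 0 with each replicate left out. Mean levels called between genotypes on NC went from 2 to 6 without the 5 libraries and to 1 to 3 with 1 replicate left out. Amplitudes called between genotypes on cdHFD went from 2 to 0 to 2 with 1 replicate left out. Between diets in Hep-Bmal1WT mice they went from 1 to 3 without the libraries nearer the other genotype, to 0 without the 5 libraries and to 0 to 4 with 1 replicate left out. In Hep-Bmal1KO mice they went from 0 to 1, to 2 and to 0 to 1 under the same changes. For most of these rhythm alternatives no share of all genes stands beside the count. The cause of these changes was not tested.

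Of the values of single genes that changed sign, 48 of 49 were not called in the report, and the exception was Fgb between genotypes on NC (-0.025 in females). On NC these were also Saa1 (0.0013 with at least 10 counts in 24 libraries, 0.0095 with no filter, 0.19 in males, -0.40 to 0.28 with 1 replicate left out, above 0 in 3 of the 4 such fits), Orm1 (0.10 in males), Orm2 (0.29 in males, -0.60 to 0.10 with 1 replicate left out), Saa2 (-0.57 in females, -0.57 without the 5 libraries, -0.27 to 0.43 with 1 replicate left out), Hp (-0.011 in females), Hpx (-0.026 in females) and Lcn2 (-0.34 in females, -0.083 without the 5 libraries, -0.043 without ZT22). On cdHFD they were Hpx (0.012) and Lcn2 (0.15), both in females. For genotype by diet in females they were Saa1 (0.44), Saa2 (0.53), Saa3 (0.12), Saa4 (0.22), Orm1 (0.079), Orm2 (0.62), Hpx (0.037), Lcn2 (0.49) and Fgb (0.052). Without the 5 libraries the interaction changed sign for Saa1 (0.14), Saa2 (0.18), Saa4 (0.0085) and Orm2 (0.20), without ZT22 for Orm2 (0.16), and with 1 replicate left out for Saa1 (-0.66 to 0.068), Orm2 (-0.46 to 0.085) and Fgb (-0.34 to 0.013). Between the sexes they were Fgb (0.0071 by DESeq2, 0.0071 with its size factors, 0.071 without the 5 libraries, 0.080 without ZT22, -0.0081 to 0.015 with 1 replicate left out) and Orm2 (-0.042 to 0.19 with 1 replicate left out). For sex by diet they were Saa2 (-0.19), Saa3 (-0.12) and Lcn2 (-0.37) without the 5 libraries and Saa3 (-0.17) and Lcn2 (-0.32) without ZT22.

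No paired analysis was possible because the labels give no replicate numbers. Depth limits most the genes at a few CPM, such as Orm3. The 5 libraries were picked by Saa1, so the values without them of Saa1, Saa2 and the other genes that varied with Saa1 on NC are descriptions. The 7 libraries nearer the other genotype were picked by levels that lay against their label. Genotype values without them are descriptions too.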

Other observations

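Other acute phase genes were also compared between the sexes. Of the 29 other positive acute phase genes, 11 were higher in females and 3 lower by edgeR, against 8.99% and 8.24% of all genes, and their median log2 difference was 0.11, against -0.25 for the 10 genes of the report and 0.0078 over all genes, with the other 15 not called. The lists were not tested against each other. Of the 10 negative acute phase genes, 6 were higher in females and none lower. Serpina6, the corticosteroid-binding globulin, was higher in females (log2 0.84, adjusted p = 1.1e-07), as were Igfals (0.67, adjusted p = 6.4e-14) and Alb (0.45, adjusted p = 5.4e-08). Lrg1, the leucine-rich glycoprotein named above for its likeness to Saa1, was lower in females (-0.50, adjusted p = 9.4e-06), in the direction of Saa1. Which genes to name here was chosen after their values were seen.

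Orm3 differed from Orm1 between the sexes. It was higher in females (log2 0.75, SE 0.24, adjusted p = 0.017), whereas Orm1 was lower, and its difference between the sexes also depended on diet (-1.35, adjusted p = 0.048).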
